A study of Oryza sativa with 12 samples.

Results

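The genes described here changed in opposite directions between the tissues of the pedicel in 2 rice cultivars. The pedicel is the stalk that bears the grain. For each gene the mean of log2(FPKM + 0.1) in the abscission zone (AZ) was subtracted from that in the nonabscission zone (NAZ). A gene was taken when this tissue difference was at least 1 in one cultivar and at most -1 in the other, and when its mean FPKM was at least 1 in at least 1 tissue of each cultivar. FPKM count fragments relative to gene length and sequencing depth, and a difference of 1 on the log2 scale is about 2-fold. The rule took 32 of 35851 genes, of which 18933 met its FPKM part. In 14 of the 32 genes NAZ was above AZ in W517 and below AZ in DZ129. In the other 18, NAZ was below AZ in W517 and above AZ in DZ129. Because the tissue differences chose the genes, these differences, and the differences between the cultivars within 1 tissue that follow from them, are given as a description without a test.

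The 4 groups were W517NAZ, W517AZ, DZ129NAZ and DZ129AZ, with 3 libraries each. W517 sheds its grain easily, DZ129 has lost shattering, and both are germplasm accessions labelled as genotype WT, with no treatment. AZ was a piece of less than 2 mm, NAZ was the rest of the pedicel, and both were sampled at day 10, counted from flowering in the labels and from heading in the study's methods. The sources used here do not say whether the numbered replicates were separate plants, so p-values measure only the spread between these libraries, which may be technical. With 1 accession for each phenotype, shattering cannot be told apart from any other difference between W517 and DZ129. In such bulk tissue, fewer cells of a type and less RNA per cell cannot be told apart either.

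Rice grains fall when a thin layer of small cells across the pedicel, the abscission layer, separates from its neighbours. In the layer the walls and the pectin between cells are broken down by secreted hydrolases, whereas the pedicel around it is green, carries the vascular strands that feed the grain, and lignifies as the grain ripens. Where the layer forms, a gene expressed mainly in it is higher in AZ, and a gene of the green or lignified stalk is higher in NAZ. A plant that sheds its grain and one that retains it may differ in whether the layer forms and in where wall, defence and metabolic genes are read along the stalk. By electron microscopy the study saw a smooth fracture surface in W517 and a rough one in DZ129. It reports that no abscission layer was formed by material lacking shattering. The AZ of DZ129 is thus named by its position on the pedicel, and need not be the same tissue as the AZ of W517. The 32 genes are those for which the same locus marked the AZ side in one cultivar and the NAZ side in the other.

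Product names could be given for few of them. LOC_Os03g20210 is annotated by the study as a putative precursor of an aspartic proteinase of the nepenthesin type. Plant enzymes of this family are mostly secreted or vacuolar and cut other proteins, and the Arabidopsis homologue named beside it is ASPG1. LOC_Os03g14420 is drawn by the study among the loci of the shattering QTL qBTS3 with the product cytochrome P450, a large family of haem enzymes that oxidise hormones, lignin precursors and defence compounds. It was not the study's candidate there. That was a glycosyl hydrolase gene, the only locus of qBTS3 that the study found among its core shattering genes. The study also took genes with opposite regulation in the cultivars into that core set, and its overlap with the 32 was not examined here. The product names readable as text were those of 1160 genes in the study's list of AZ-specific genes of W517, which held 1 of the 32. That list leaves out genes that the study called between the tissues of DZ129. It could therefore hold few genes that change in both cultivars. In the RefSeq table used here 0 of the 32 matched. The other genes are therefore called by their locus identifiers, in which the digits after Os give the chromosome.

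Each library held 17119083 to 20892377 reads on genes, and libraries of 1 group correlated at 0.989 to 0.991 across genes. Marker sums differed between the groups. The summed FPKM of 15 prolamin and glutelin genes, which encode storage proteins of the grain, lay at 42.1 to 47.5 in W517NAZ and 447 to 491 in W517AZ, and at 1.12 to 1.62 in DZ129NAZ and 1.93 to 3.81 in DZ129AZ. All 15 had reads in both tissues of W517, while 4 of them were at 0 in every DZ129NAZ library and 1 in every DZ129AZ library. The summed FPKM of 30 thylakoid genes, which serve photosynthesis, lay at 2891 to 2930 in W517NAZ and 1124 to 1208 in W517AZ, and at 3802 to 3973 in DZ129NAZ and 2594 to 2822 in DZ129AZ. Both lists were taken from the study's AZ-specific genes of W517, chosen on these samples, and neither holds any of the 32 genes. The study called those genes between the tissues of W517 and between the AZ of the cultivars. It left out genes called between the tissues of DZ129. The differences of the sums thus follow in part from that choice. The sum of these 30 thylakoid genes was higher in NAZ in both cultivars, which does not stand for green tissue genes at large. The parts of green tissue and of grain material in the opposite changes were not tested, which also holds for the genes highest in W517AZ. Loci of the known abscission zone regulators are not named in the sources used here, so the label AZ was not checked against them.

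Opposite changes of this size were rare. At least 1 in size in both cultivars was the tissue difference of 3982 genes, of which 3950 changed the same way (1378 higher and 2572 lower in NAZ) and 0.804% changed in opposite directions. At any size, 3498 genes (18.5%) had opposite signs, most of them near 0. By the smaller of their 2 differences, 12 genes lay between 1.0 and 1.1 in size, inside the limit of the rule, and 15 between 0.9 and 1.0, outside it. Just inside it were LOC_Os02g45520 (-1.002 in W517 and 1.12 in DZ129) and LOC_Os10g39970 (-1.31 and 1.02). Just outside were LOC_Os01g74110 (1.64 in W517 and -0.998 in DZ129) and LOC_Os02g48570 (-1.45 and 0.99).

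**Figure D1:**
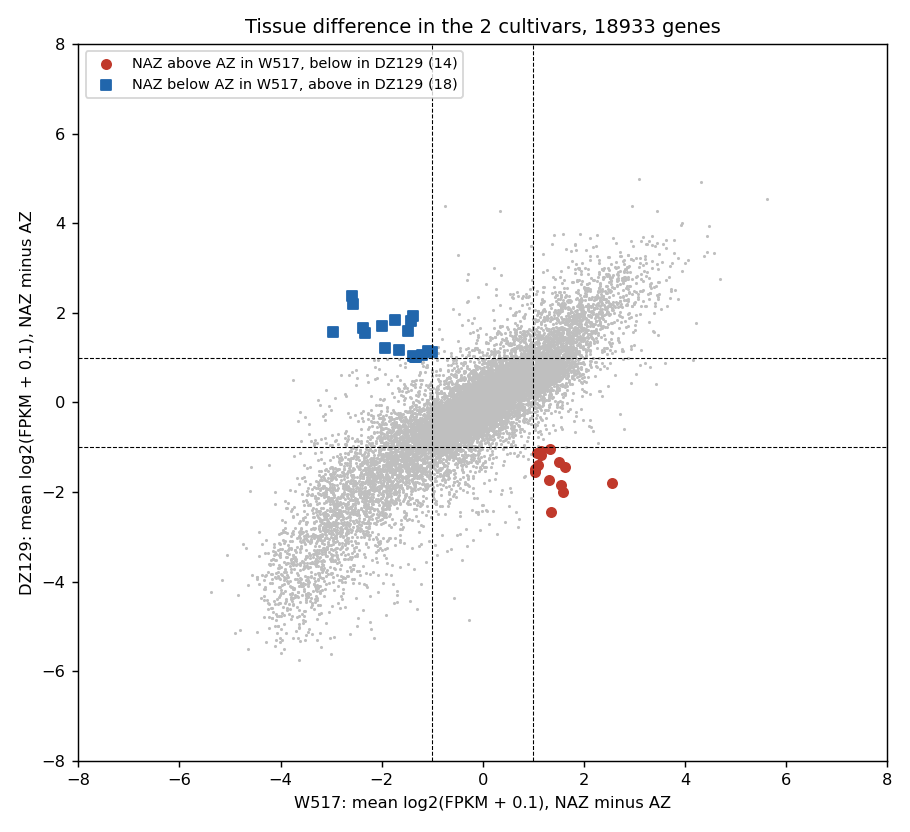
Tissue difference of 18933 genes, as mean log2(FPKM + 0.1) in NAZ minus AZ, in W517 (horizontal) and DZ129 (vertical); dashed lines mark differences of 1 and -1. Most genes lie along the rising diagonal, and the 14 genes higher in NAZ of W517 (circles) and 18 lower in NAZ of W517 (squares) fill the other 2 corners.

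In 30 of the 32 genes every NAZ library lay on one side of every AZ library in both cultivars, in opposite directions. Of all genes that met the FPKM part, 5.51% did so, but the rule selects for this pattern and nothing is read from the difference. The exceptions were LOC_Os12g42510 and LOC_Os04g58790, both among the 14. By their median the differences were larger in the 18, at -1.57 in W517 and 1.56 in DZ129. For the 14 the medians were 1.32 in W517 and -1.46 in DZ129. The largest single difference in DZ129, -2.46, was that of LOC_Os08g10310, one of the 14. As ratios of mean FPKM the higher tissue exceeded the lower by a median of 2.87-fold in W517 and 2.72-fold in DZ129 over the 32 genes. For scale, 12.4% of all 23951 genes tested were called higher and 21.3% lower in W517NAZ vs. W517AZ, and 9.84% higher and 18.2% lower in DZ129NAZ vs. DZ129AZ.

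Among the 14 genes with NAZ above AZ in W517, LOC_Os06g48500 had the highest level. It had 42.6, 44.3 and 43.5 FPKM in W517NAZ against 21.2, 19.8 and 19.9 in W517AZ, and 27.7, 28.7 and 28.7 FPKM in DZ129NAZ against 75.6, 73.3 and 76.9 in DZ129AZ. The 4 groups did not overlap, and DZ129AZ stood above the other 3. The tissue differences were 1.1 in W517 and -1.41 in DZ129 on the log2 scale. LOC_Os06g14324 had 37.0, 33.6 and 32.6 FPKM in W517NAZ against 16.9, 15.2 and 14.1 in W517AZ, and 11.9, 12.8 and 12.2 FPKM in DZ129NAZ against 24.5, 26.2 and 27.8 in DZ129AZ. Here too the 4 groups were apart, with W517NAZ the highest and DZ129NAZ the lowest, and the differences were 1.16 in W517 and -1.08 in DZ129.

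LOC_Os08g02230 and LOC_Os08g16050, both on chromosome 8, were highest in DZ129AZ. LOC_Os08g02230 had 15.8, 15.6 and 16.4 FPKM in W517NAZ against 6.30, 6.12 and 6.76 in W517AZ, and 5.64, 6.44 and 7.15 FPKM in DZ129NAZ against 18.9, 22.8 and 22.7 in DZ129AZ. The 2 low groups, W517AZ and DZ129NAZ, overlapped, so that the level that was low in the AZ of W517 was about that found in the NAZ of DZ129. LOC_Os08g16050 had 9.77, 10.9 and 8.44 FPKM in W517NAZ against 2.92, 3.65 and 2.72 in W517AZ, and 8.11, 8.54 and 7.45 FPKM in DZ129NAZ against 20.6, 22.1 and 22.9 in DZ129AZ. In this gene it was the NAZ libraries of the cultivars that overlapped, while DZ129AZ was far above W517AZ. LOC_Os08g14760, on the same chromosome, had 4.80, 4.12 and 4.69 FPKM in W517NAZ against 1.60, 1.66 and 1.32 in W517AZ, and 1.57, 2.12 and 2.49 FPKM in DZ129NAZ against 4.61, 5.56 and 5.63 in DZ129AZ. Its highs in W517NAZ and DZ129AZ overlapped and so did its lows, giving nearly mirrored differences of 1.51 in W517 and -1.33 in DZ129.

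LOC_Os08g10310 differed from the other 13 in that the cultivar set its level more than the tissue did. It had 28.1, 34.8 and 35.7 FPKM in W517NAZ against 11.8, 13.6 and 12.8 in W517AZ, and 0.140, 0.149 and 0.274 FPKM in DZ129NAZ against 1.37, 1.46 and 1.51 in DZ129AZ. Every W517 library was above every DZ129 library, while the 2 tissues were in opposite order. The tissue differences were 1.35 in W517 and -2.46 in DZ129, where the DZ129NAZ libraries held 11 to 21 reads each and the DZ129AZ libraries 102 to 112. LOC_Os01g57540 was of another shape, with DZ129AZ alone standing high. It had 1.22, 1.01 and 1.05 FPKM in W517NAZ against 0.253, 0.307 and 0.328 in W517AZ, and 0.897, 1.01 and 1.21 FPKM in DZ129NAZ against 4.20, 4.35 and 4.77 in DZ129AZ. The NAZ libraries of the cultivars overlapped, and the differences were 1.59 in W517 and -2.003 in DZ129.

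Both annotated genes belong to the 14. The aspartic proteinase gene LOC_Os03g20210 had 5.81, 6.63 and 7.16 FPKM in W517NAZ against 3.04, 2.18 and 2.41 in W517AZ, and 4.29, 3.20 and 3.52 FPKM in DZ129NAZ against 7.05, 7.75 and 7.92 in DZ129AZ. By the means DZ129AZ was the highest group and W517AZ the lowest, with the highest library of W517NAZ above the lowest of DZ129AZ. Its differences, 1.34 in W517 and -1.03 in DZ129, were among those near the limit. By the definition of the study's list that names this gene, the study did not call it between the tissues of DZ129. The cytochrome P450 gene LOC_Os03g14420 had 12.3, 10.2 and 11.5 FPKM in W517NAZ against 4.71, 5.49 and 5.02 in W517AZ, and 2.58, 2.71 and 2.39 FPKM in DZ129NAZ against 5.15, 5.73 and 6.75 in DZ129AZ. W517NAZ stood above all other groups and DZ129NAZ below them, while the AZ libraries of the cultivars overlapped. Its differences were 1.14 in W517 and -1.16 in DZ129.

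The remaining 5 of the 14 had few reads. LOC_Os12g42510 had the largest differences of the 14 by the smaller of its 2 values, but its libraries overlapped in DZ129. It had 1.75, 2.50 and 2.10 FPKM in W517NAZ against 0, 0.390 and 0.957 in W517AZ, and 0, 0.952 and 2.02 FPKM in DZ129NAZ against 2.27, 2.62 and 1.33 in DZ129AZ. These were 30 reads in W517NAZ against 7 in W517AZ, and 16 in DZ129NAZ against 32 in DZ129AZ, the second pair giving a ratio of 0.477 with an exact 95% interval of 0.244 to 0.895 that covers counting error only. LOC_Os10g03230 had 0.901, 1.37 and 2.69 FPKM in W517NAZ against 0.243, 0.643 and 0.552 in W517AZ, and 0.517, 0.314 and 0.0758 FPKM in DZ129NAZ against 0.937, 1.25 and 1.41 in DZ129AZ. Its tissues were apart in both cultivars, with a wide spread in W517NAZ. LOC_Os04g58790 had 2.37, 2.48 and 2.06 FPKM in W517NAZ against 2.78, 1.69 and 0.208 in W517AZ, and 1.95, 1.24 and 3.19 FPKM in DZ129NAZ against 6.99, 5.47 and 4.94 in DZ129AZ. In W517 its tissues overlapped, the summed reads were 30 in NAZ and 22 in AZ with a ratio of 1.49 (0.830 to 2.71), and the rule did not take it without W517AZ replicate 3 or without W517NAZ replicate 2. LOC_Os01g09080 and LOC_Os08g07740 had group means of 0.307 to 1.92 FPKM.

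**Figure D2:**
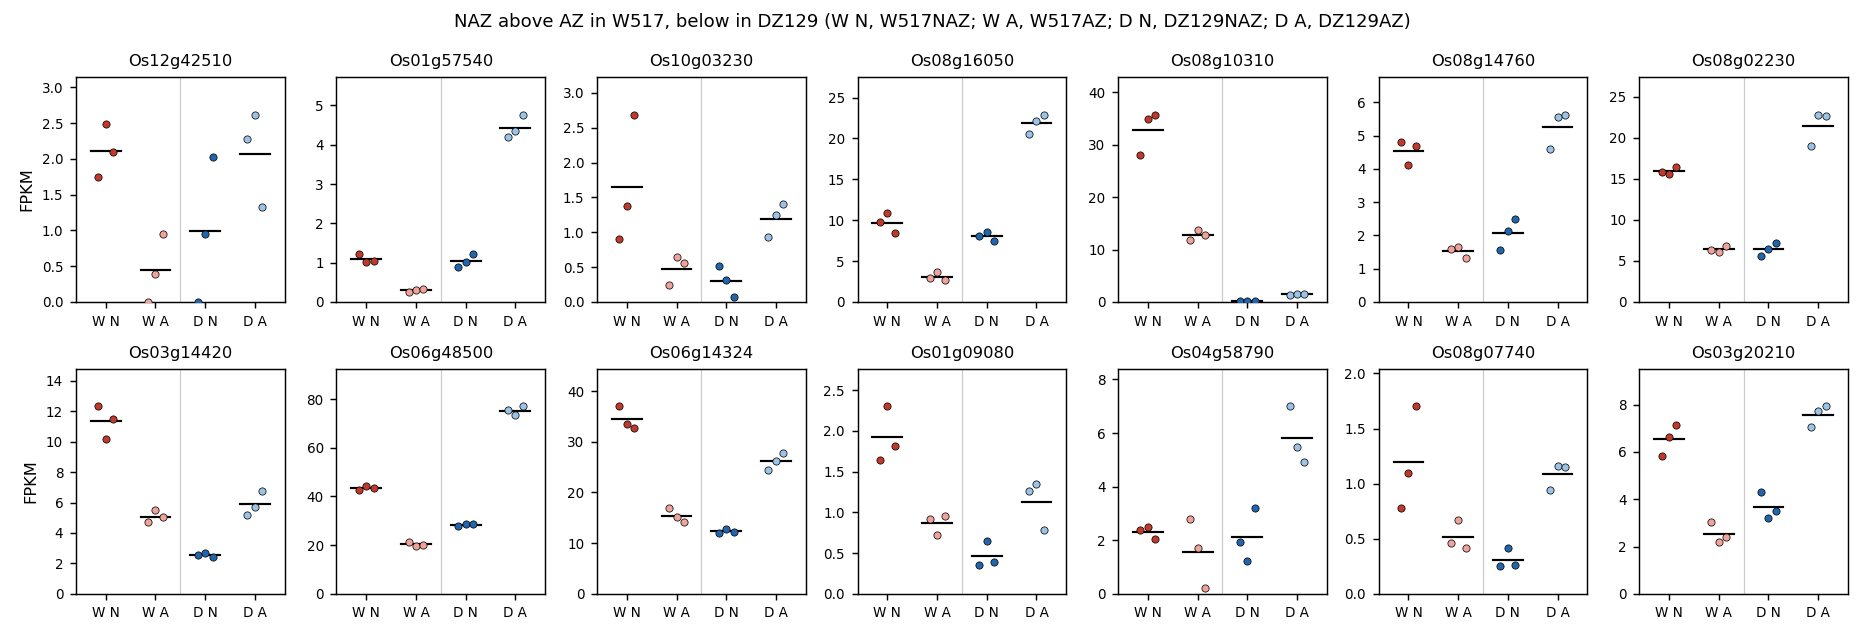
FPKM of the 14 genes with NAZ above AZ in W517 and below in DZ129, 1 panel a gene (LOC_ left out of the names), with W517NAZ, W517AZ, DZ129NAZ and DZ129AZ from left to right; points are libraries and bars are means of 3, each panel on its own linear axis from 0. LOC_Os06g48500 reached 76.9 FPKM, whereas LOC_Os08g07740 stayed at or below 1.70 FPKM.

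Among the 18 genes with NAZ below AZ in W517, a first group was highest in DZ129NAZ. LOC_Os01g71340 had 1.16, 1.42 and 2.23 FPKM in W517NAZ against 8.40, 10.6 and 10.1 in W517AZ, and 35.0, 34.8 and 36.6 FPKM in DZ129NAZ against 7.15, 8.18 and 7.73 in DZ129AZ. The AZ of W517 lay just above that of DZ129, and the contrast between the cultivars was in NAZ, where W517 minus DZ129 was -4.43 on the log2 scale. LOC_Os06g38970 had 1.03, 1.5 and 1.5 FPKM in W517NAZ against 5.48, 5.53 and 5.71 in W517AZ, and 27.6, 28.3 and 27.6 FPKM in DZ129NAZ against 8.59, 8.64 and 8.10 in DZ129AZ. All 4 groups were apart, with DZ129 above W517 in both tissues. The differences were -2.57 in W517 and 2.19 in DZ129 for LOC_Os01g71340, and -1.99 and 1.71 for LOC_Os06g38970.

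LOC_Os02g45520 was the most abundant of the 18. It had 10.4, 11.2 and 11.2 FPKM in W517NAZ against 20.5, 23.3 and 22.3 in W517AZ, and 50.4, 50.8 and 49.0 FPKM in DZ129NAZ against 23.5, 23.8 and 21.6 in DZ129AZ. The AZ libraries of the cultivars overlapped, and NAZ lay about 2-fold below that common level in W517 and about 2-fold above it in DZ129. LOC_Os06g51060 had 0.818, 0.942 and 1.04 FPKM in W517NAZ against 2.79, 3.46 and 2.22 in W517AZ, and 35.2, 34.3 and 35.2 FPKM in DZ129NAZ against 11.7, 12.2 and 10.4 in DZ129AZ. All DZ129 libraries were above all W517 libraries, and the tissue differences were -1.49 in W517 and 1.60 in DZ129. LOC_Os02g49510 had 0.546, 0.390 and 0.236 FPKM in W517NAZ against 2.46, 2.32 and 2.13 in W517AZ, and 13.5, 12.3 and 13.3 FPKM in DZ129NAZ against 4.66, 4.91 and 3.72 in DZ129AZ. It had the same order of groups, lowest in W517NAZ and highest in DZ129NAZ.

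LOC_Os02g40784 and LOC_Os03g50960 followed this order at lower levels. LOC_Os02g40784 had 0.0941, 0.0447 and 0 FPKM in W517NAZ against 0.635, 1.3 and 1.17 in W517AZ, and 5.95, 6.10 and 5.65 FPKM in DZ129NAZ against 1.83, 1.84 and 2.06 in DZ129AZ. W517NAZ held 6 reads in its 3 libraries and W517AZ 149, so that AZ exceeded NAZ 22.7-fold with an exact 95% counting interval of 10.2 to 63.0. LOC_Os03g50960 had 0.875, 0.0693 and 0.421 FPKM in W517NAZ against 1.25, 1.5 and 1.40 in W517AZ, and 7.05, 7.93 and 6.87 FPKM in DZ129NAZ against 1.83, 2.08 and 2.02 in DZ129AZ. Its W517NAZ libraries had a wide spread and held 19 reads in all, yet each was below every W517AZ library.

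A second group of the 18 was highest in W517AZ. LOC_Os11g34390, the most abundant of them, had 10.7, 10.3 and 10.999 FPKM in W517NAZ against 23.0, 23.5 and 22.1 in W517AZ, and 7.02, 6.72 and 6.01 FPKM in DZ129NAZ against 2.98, 3.35 and 2.48 in DZ129AZ. W517 was above DZ129 in both tissues and the groups did not overlap. LOC_Os01g22780 had 1.13, 1.15 and 1.02 FPKM in W517NAZ against 3.25, 3.06 and 3.03 in W517AZ, and 1.32, 1.52 and 1.07 FPKM in DZ129NAZ against 0.221, 0.404 and 0.285 in DZ129AZ. LOC_Os03g07350 had 1.11, 0.926 and 0.937 FPKM in W517NAZ against 3.48, 3.20 and 3.35 in W517AZ, and 1.14, 1.09 and 1.08 FPKM in DZ129NAZ against 0.542, 0.449 and 0.331 in DZ129AZ. In these 2 genes the NAZ libraries of the cultivars overlapped, and W517AZ was high and DZ129AZ low on either side of them.

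LOC_Os03g61860 had the largest opposite differences of the 32, -2.59 in W517 and 2.38 in DZ129, and the lowest mean level. It had 0.371, 0 and 0.178 FPKM in W517NAZ against 1.17, 2.15 and 0.892 in W517AZ, and 0.532, 1.37 and 1.25 FPKM in DZ129NAZ against 0.0803, 0.171 and 0.0803 in DZ129AZ. The tissues did not overlap in either cultivar, but the summed reads were 6 in W517NAZ against 51 in W517AZ, and 40 in DZ129NAZ against 4 in DZ129AZ. LOC_Os03g14010 had 0.272, 0.207 and 0.288 FPKM in W517NAZ against 1.3, 2.09 and 1.88 in W517AZ, and 1.63, 1.61 and 1.74 FPKM in DZ129NAZ against 0.330, 0.576 and 0.495 in DZ129AZ. It mirrored LOC_Os08g14760, with both highs overlapping and the lows at 0.207 to 0.576 FPKM. LOC_Os10g39970, next to the limit of the rule, had 0.574, 0.893 and 1.05 FPKM in W517NAZ against 1.83, 2.33 and 2.42 in W517AZ, and 1.41, 1.14 and 1.45 FPKM in DZ129NAZ against 0.678, 1.11 and 0.271 in DZ129AZ. Its DZ129 tissues were only just apart, at 1.14 against 1.11 FPKM. The other 5 (LOC_Os02g06450, LOC_Os07g02990, LOC_Os04g01310, LOC_Os06g01810 and LOC_Os05g33400) had group means of 0.445 to 5.04 FPKM. LOC_Os02g06450, with 207 bp the shortest of the 32, held only 6 to 25 reads in any group.

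**Figure D3:**
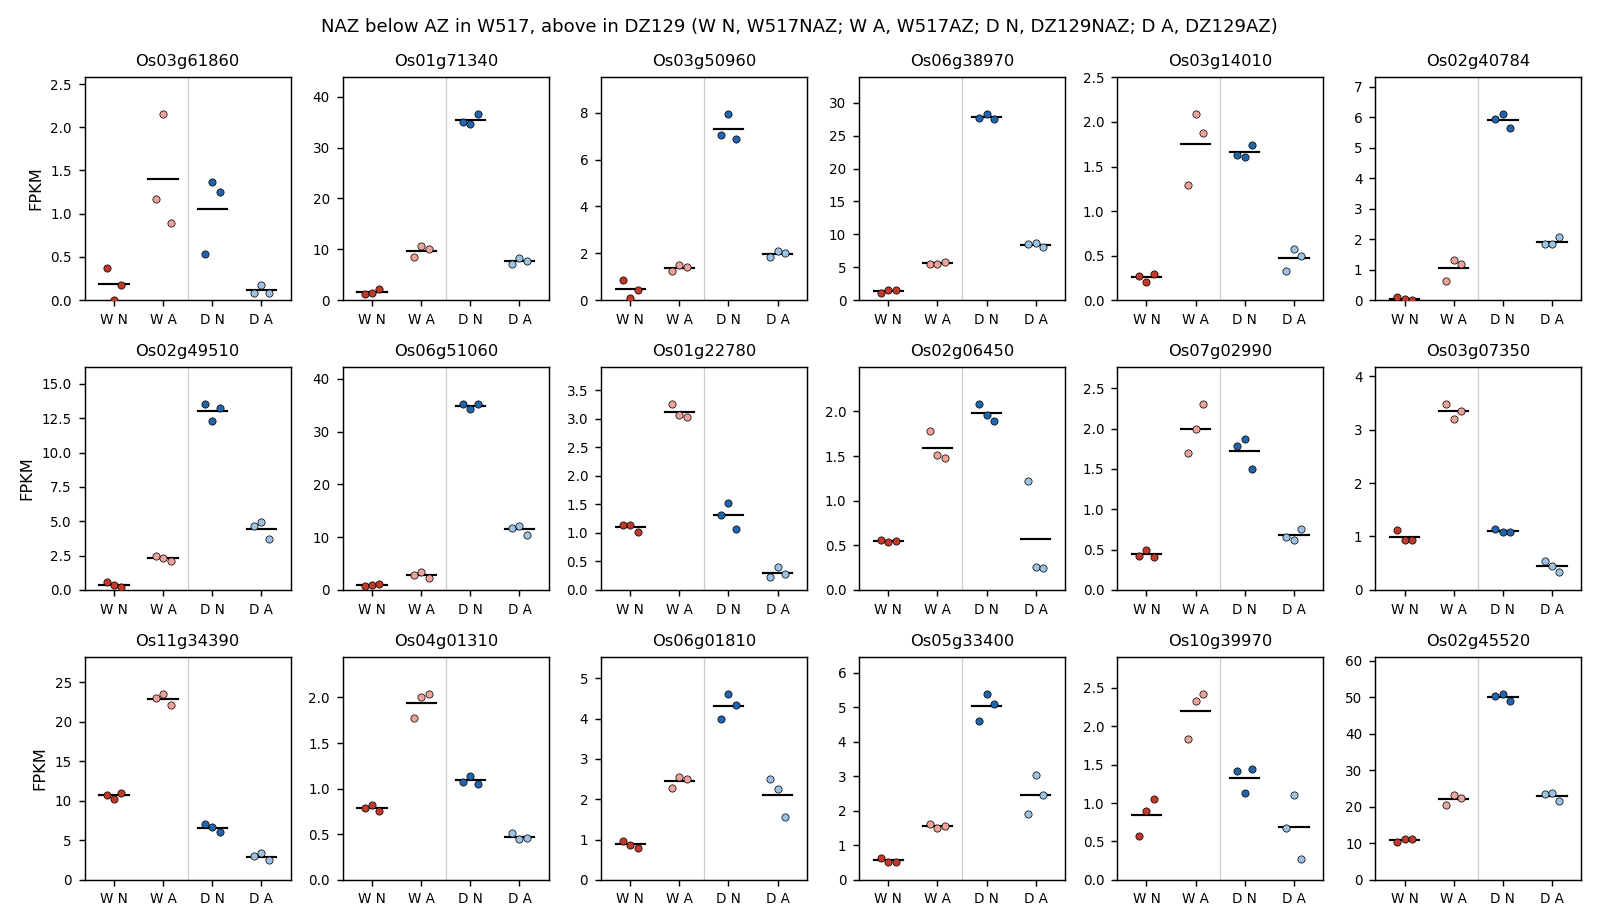
FPKM of the 18 genes with NAZ below AZ in W517 and above in DZ129, drawn as for the other 14 (points are libraries, bars are means of 3, linear axes from 0). LOC_Os02g45520 reached 50.8 FPKM in DZ129NAZ, and LOC_Os11g34390 reached 23.5 FPKM in W517AZ.

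Seen by cultivar, 2 arrangements made up the 32 genes. In 23 genes the order of the cultivars by mean log2 level turned round between the tissues, as in LOC_Os08g02230, and in 9 one cultivar was above the other in both tissues. Of all genes that met the FPKM part, 26.4% turned round, and the rule favours this pattern, so nothing is read from the difference. The genes that turned round were 13 of the 14, all but LOC_Os08g10310, and 10 of the 18. DZ129 was above W517 in both tissues in 7 genes, all among the 18, and W517 was above in both in LOC_Os08g10310 and LOC_Os11g34390. A reversal of at least 2-fold each way was found in 8 genes, which 0.185% of the genes that met the FPKM part showed. The rule favours this too, and nothing is read from it. The highest group of the 14 was W517NAZ in 7 and DZ129AZ in 7, and that of the 18 was DZ129NAZ in 10 and W517AZ in 8. The lowest group of the 18 was W517NAZ in 12 of them, more often than DZ129AZ (6), a difference that was not tested.

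The cultivar average is the mean of both tissues in W517 minus that in DZ129. In this balanced design its measurement error is orthogonal to that of the tissue differences that chose the genes, and it was tested with limma across all 23951 genes. Under the rule, however, cultivars that are level in 1 tissue must differ in the other, which moves the average too. In LOC_Os02g45520 the cultivars differed by -0.06 in AZ and -2.19 in NAZ, with an average of -1.12. The shares called, the median sizes and the calls of single genes given next, with their p-values, are thus not independent of the rule. Nothing is read from the excess of the shares and sizes. Where the cultivars were about level in 1 tissue, a call follows largely from the rule and is given as a description. The FPKM part of the rule also used the levels in both cultivars, so the nearest comparison is with the genes that met that part. The cultivar average was higher in W517 in 4 of the 32 genes and lower in 11 (46.9% either way), at an adjusted p below 0.05 and a log2 value beyond 1. Of all genes tested, 9.78% were called higher and 16.5% lower, and 26.3% either way. Of the tested genes that met the FPKM part of the rule, 5.39% were called higher, 8.96% lower and 14.3% either way. After median-ratio scaling the 32 genes had 5 higher and 10 lower in W517, and all genes tested had 2488 higher and 3779 lower. After quantile normalization the 32 genes had 8 higher and 9 lower in W517. All genes tested then had 3201 higher and 3246 lower, against 2343 and 3957 as deposited. The excess of lower calls thus remained after median-ratio scaling and was nearly lost after quantile normalization. At any size, 24 of the 32 genes (75%) had an adjusted p below 0.05, against 77.1% of all genes tested and 75.2% of those that met the FPKM part. The median size of the average was 0.96 for the 32 genes and 0.32 for all genes that met the FPKM part. For the 3950 genes that changed the same way in both cultivars it was 0.57, and 28.4% of them were called.

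The highest average belonged to LOC_Os08g10310, at 4.96 ± 0.11 (SE) on the log2(FPKM + 0.1) scale with a limma adjusted p of 1.3e-13. LOC_Os11g34390 followed at 1.81 ± 0.07 (limma adjusted p = 2.1e-11) and LOC_Os01g22780 at 1.40 ± 0.13 (limma adjusted p = 4.3e-07). The fourth gene higher in W517, LOC_Os03g07350, had an average of 1.27. Of these 4, all but LOC_Os08g10310 belong to the 18. In LOC_Os01g22780 and LOC_Os03g07350 the difference lay in AZ (3.02 and 2.69), since in NAZ the cultivars differed by -0.22 and -0.14. The lowest averages were those of LOC_Os06g51060 at -3.55 ± 0.09 (limma adjusted p = 6.3e-13), LOC_Os02g40784 at -3.14 ± 0.19 (limma adjusted p = 2.9e-09) and LOC_Os02g49510 at -2.85 ± 0.14 (limma adjusted p = 3.5e-10). LOC_Os06g38970 (-2.44), LOC_Os03g50960 (-2.28), LOC_Os01g71340 (-2.05), LOC_Os05g33400 (-1.78) and LOC_Os02g45520 (-1.12) completed the 8 genes of the 18 that were lower in W517. In LOC_Os01g71340 and LOC_Os02g45520 the difference lay in NAZ, since in AZ the cultivars differed by 0.33 and -0.06.

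Of the 14, LOC_Os01g57540 (-1.72), LOC_Os08g16050 (-1.26) and LOC_Os04g58790 (-1.06) were lower in W517 and 10 were not called. In the genes lower in W517, in that order, the cultivars differed by -3.52, -2.79 and -2.32 in AZ. In NAZ they differed by 0.08, 0.26 and 0.20, so the calls came from AZ, which is given as a description. The call of LOC_Os04g58790 (limma adjusted p = 0.038, 95% interval -1.99 to -0.13) was lost in 14 of 20 alternatives, and without W517AZ replicate 3 the average was -0.58. Among the 17 genes not called, 9 had an adjusted p below 0.05 with a size under 1. LOC_Os06g01810 was the nearest to a call, at -0.97 (limma adjusted p = 4.3e-06), followed by the cytochrome P450 gene LOC_Os03g14420 at 0.95 (95% interval 0.78 to 1.12, limma adjusted p = 9.9e-08). The aspartic proteinase gene LOC_Os03g20210 had an average of -0.37 (95% interval -0.58 to -0.16, limma adjusted p = 0.0038). In LOC_Os02g06450 the average was -0.03 with an interval of -0.62 to 0.56, and in LOC_Os12g42510 it was -0.32 with an interval of -1.79 to 1.16, so a difference of 2-fold lay within the second interval and outside the first.

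**Figure D4:**
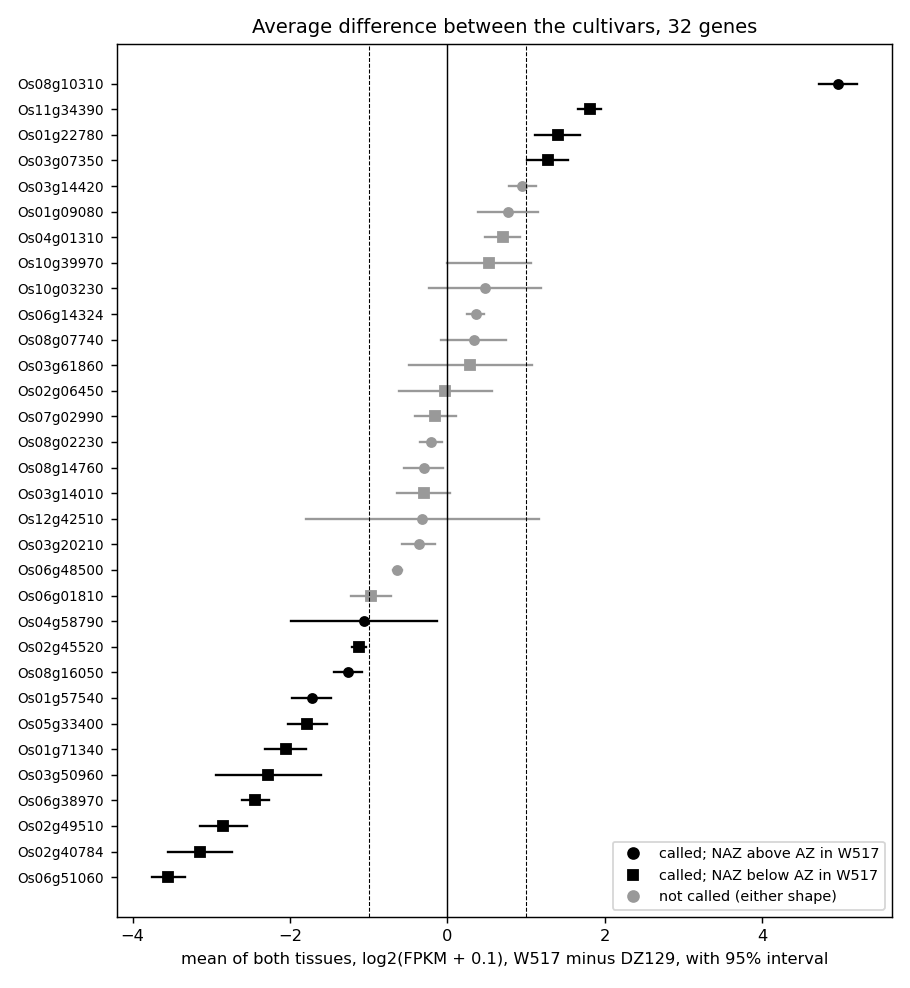
Average difference between the cultivars (mean of both tissues, W517 minus DZ129, log2(FPKM + 0.1)) of the 32 genes, with 95% intervals from limma; black marks were called, grey ones were not, and dashed lines mark 1 and -1. LOC_Os08g10310 stands alone at 4.96, and 11 called genes lie at or below -1.06.

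The 32 genes were expressed at lower levels than most, which limits their precision. Their median level, as mean FPKM over the 4 groups, was 2.61, against 12.6 for all genes that met the FPKM part and 7.18 for those that changed the same way in both cultivars. The median SD between replicates was 0.20 on the log2 scale, against 0.10 and 0.17 in those gene sets. In 13 genes some library held under 10 reads, and 4 genes had over 100 reads in every library. A library without reads occurred in LOC_Os12g42510, LOC_Os02g40784 and LOC_Os03g61860. Gene length was not unusual, with a median of 1694 bp (1790 bp for all genes that met the FPKM part), although LOC_Os02g06450, LOC_Os04g58790 and LOC_Os12g42510 were short (207, 246 and 267 bp).

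Whether a gene was taken depended on the settings to a varying degree. The rule was repeated under 20 other settings, and 21 of the 32 genes were taken whichever library was left out. Of these, 8 were also taken at pseudocounts of 0.5 and 1 and after both other scalings of the libraries. They were LOC_Os08g16050, LOC_Os08g10310, LOC_Os08g14760, LOC_Os08g02230 and LOC_Os06g48500 of the 14, and LOC_Os01g71340, LOC_Os06g38970 and LOC_Os02g49510 of the 18. LOC_Os01g71340 and LOC_Os06g38970 were taken under all 20 settings. Pseudocounts of 0.5 and 1 left 20 and 9 genes, all of them among the 32, since a larger pseudocount shrinks the differences of weakly expressed genes. After median-ratio scaling 38 genes were taken with 28 of the 32 among them, and after quantile normalization 36 with 20. LOC_Os03g20210, LOC_Os02g45520 and LOC_Os03g14420 were among the genes lost after quantile normalization.

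**Figure D5:**
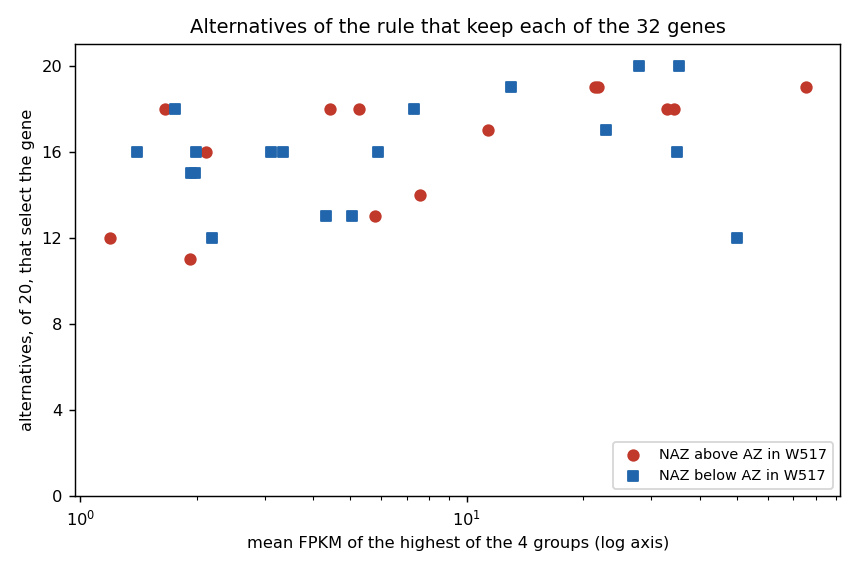
Number of the 20 other settings under which the rule still took each of the 32 genes (vertical) against the mean FPKM of its highest group (horizontal, log axis). Counts ran from 11 to 20, and the genes taken under all 20 settings had 27.8 and 35.4 FPKM in their highest group.

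By locus identifier, chromosome 8 held 5 of the 32 genes (15.6%), all of the 14 (35.7% of them), while it carries 6.50% of the genes that met the FPKM part. These were LOC_Os08g02230, LOC_Os08g07740, LOC_Os08g10310, LOC_Os08g14760 and LOC_Os08g16050, and 4 of them were among the 8 taken at every pseudocount and scaling. Chromosome 2 held 4 of the 32 genes (12.5%), all of the 18 (22.2% of them), and carries 12.1% of the genes that met the FPKM part. Chromosomes 3 and 6 held 6 and 5 genes of both directions (18.8% and 15.6% of the 32) and carry 13.7% and 7.83%, and chromosome 9 held 0 and carries 5.41%. No test was made of these counts. No 2 genes were neighbours: the closest pair, LOC_Os03g14010 and LOC_Os03g14420, had locus numbers 410 apart and changed in opposite directions.

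The nearest gene on each side that met the FPKM part was examined for every locus, 64 in all. In 37 (57.8%) the tissue difference of W517 minus that of DZ129 had the sign of the locus beside it, 13 of 28 beside the 14 genes and 24 of 36 beside the 18, and 49.7% of all genes that met the FPKM part had a value above 0. In 10 (15.6%) it was also beyond 1 in size. Of the genes that met the FPKM part, 4.38% were beyond 1 and 5.15% beyond -1. No test was made of these shares, the genes were not matched for level, and nothing is read from the difference. Opposite signs in the cultivars were found in 12 of the flanking genes (18.8%), about the share of all genes that met the FPKM part (18.5%). The clearest case was LOC_Os06g01800, beside LOC_Os06g01810. Its mean FPKM was 0.678 in W517NAZ and 2.92 in W517AZ, and 3.26 in DZ129NAZ and 1.66 in DZ129AZ, or differences of -2.08 and 0.94, just short of the rule. LOC_Os06g01810 itself had 0.880 in W517NAZ and 2.44 in W517AZ, and 4.32 in DZ129NAZ and 2.11 in DZ129AZ.

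On chromosome 8, both neighbours of LOC_Os08g10310 had signs like its own, at smaller size. LOC_Os08g10300 averaged 10.3 FPKM in W517NAZ and 7.39 in W517AZ, and 4.48 in DZ129NAZ and 6.65 in DZ129AZ. LOC_Os08g10320 averaged 108 FPKM in W517NAZ and 44.1 in W517AZ, and 65.1 in DZ129NAZ and 73.8 in DZ129AZ. Neither shared the large gap between the cultivars, as their cultivar averages were 0.67 (limma adjusted p = 1.2e-07) and -0.0025 (limma adjusted p = 0.95), against 4.96 for LOC_Os08g10310. LOC_Os03g14400, which the study also names as a cytochrome P450 gene and which lies beside LOC_Os03g14420, averaged 13.2 FPKM in W517NAZ and 7.04 in W517AZ, and 16.5 in DZ129NAZ and 14.01 in DZ129AZ. It was higher in NAZ in both cultivars, by 0.90 and 0.24, and did not share the reversal. Whether reads were shared between such related neighbours was not tested.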

How the data were processed

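Stranded mRNA libraries were made from AZ and NAZ of the pedicels of W517 and DZ129. Per the study's methods, Trimmomatic cleaned the reads, HISAT2 aligned them to MSU-RGAP 7.0, Cufflinks computed FPKM and HTSeq counted reads per gene. The authors deposited the FPKM of 35851 genes in 12 libraries, under locus identifiers and without coordinates. Whole reads were recovered from them: each gene's 12 values, multiplied by the library total and by 1 gene length (150 to 20000 bp allowed), came within 0.003 reads of whole numbers for 100% of the genes. These reads served for depth, for exact 95% intervals of pooled ratios and for an alternative test (limma voom, chosen after seeing the data).

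Tissue differences were computed on log2(FPKM + 0.1). Limma-trend (limma 3.58.1, R 4.3.3) was fitted to the 12 libraries as 4 groups with a common spread, and the cultivar average was 1 contrast of this fit. A gene entered when 3 or more libraries reached 0.5 FPKM, which all 32 genes did, and Benjamini-Hochberg adjustment covered all 23951. Genes were called at an adjusted p below 0.05 and a log2 value beyond 1. The study's own test was a count model on read counts; the main test here was made on the FPKM as deposited. The genes and lists described here were chosen with earlier results of these data known.

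Genes given in full were, in each direction, the 8 with the largest size (the smaller of the 2 tissue differences in absolute terms) and the 3 of highest mean FPKM, with the annotated ones, the 3 highest and 3 lowest called averages and those next to the limit. Any other gene was named after its values were seen. Product classes could not be counted with 2 annotated genes, and sequences were not used here. The alternatives were pseudocounts of 0.5 and 1, median-ratio scaling, quantile normalization, other FPKM limits, a difference of 1.5, the replicate number as a block, and each library left out in turn. Scripts were tested on simulated data and ran under Python 3.11.15 with numpy 2.4.6, pandas 2.3.3 and matplotlib 3.10.9.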

Additional observations from a re-analysis of the deposited data

Results flagged for a closer look

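In 12 of the 14 genes with NAZ above AZ in W517, and in 18 of the 18 with NAZ below AZ in W517, every NAZ library lay on one side of every AZ library in both cultivars, in opposite directions. Of all genes that met the FPKM part of the rule, 5.51% showed this. The difference between the cultivars was not tested, because the genes were chosen by it, and nothing is read from it.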

How the results depend on the processing

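The number of genes that met the rule was 32 and became 20 at a pseudocount of 0.5, 9 at a pseudocount of 1, 79 with no minimum FPKM, 10 at a minimum mean of 5 FPKM and 10 at a difference of 1.5 each way. Leaving out 1 library gave 30 to 37 genes. Of the 32 genes, 14 to 16 were called in the cultivar average when a library was left out (4 to 5 higher and 10 to 11 lower in W517), and 12 to 17 over the other alternatives. The genes higher in W517 numbered 2 at a pseudocount of 1 and 8 after quantile normalization, against 4. Over all genes tested, 6300 were called (2343 higher and 3957 lower in W517). A pseudocount of 1 gave 3815 (1242 and 2573), quantile normalization gave 3201 higher and 3246 lower, and leaving out a library gave 6294 to 6356. Quantile normalization moved the median cultivar average of all genes by 0.16. With the replicate number as a block, 15 of the 32 genes and 6300 of all genes were called, and no call of the 32 changed. The numbers did not pair the libraries, since same-numbered libraries of different groups correlated at -0.04 to 0.02 in their deviations from the group means.

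The sign of the average turned in 4 genes, none of them called: LOC_Os02g06450 (0.018 after median-ratio scaling, 0.46 after quantile normalization, and -0.20 to 0.29 when a library was left out, positive without DZ129AZ replicate 1), LOC_Os03g14010 (0.21 after quantile normalization), LOC_Os07g02990 (0.38 after quantile normalization) and LOC_Os12g42510 (0.075 after quantile normalization, and -0.97 to 0.16 when a library was left out, positive without W517AZ replicate 1 or DZ129NAZ replicate 3). The cause was not tested. Of the 15 called genes, 11 were called under every alternative. The others were LOC_Os01g22780, LOC_Os03g07350, LOC_Os02g45520 and LOC_Os04g58790, the last of which lost its call in 14 of 20 alternatives. Depth limits most the genes with few reads in all: the 95% counting interval of the NAZ to AZ ratio spans 1 for LOC_Os04g58790 in W517 (0.830 to 2.71) and comes near it for LOC_Os12g42510 in DZ129 (0.244 to 0.895) and LOC_Os02g06450 in W517 (0.113 to 0.898).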
